A study of Mus musculus with 9 samples.

Results

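The transcription factors that keep radial glia in a progenitor state form the gene group described here. It holds 10 genes, taken by symbol: Sox1, Sox2, Sox9, Pax6, Emx1, Emx2, Lhx2, Nr2e1, Gli3 and Hes1. All 10 were among the 19938 genes with a probe set of 1 symbol on the array, and each had 1 such probe set. Radial glia line the ventricles of the developing forebrain and give rise to neurons, and later to astrocytes and ependymal cells. The SOX factors and HES1 hold them undifferentiated, PAX6, EMX1, EMX2 and LHX2 give the dorsal, cortical wall its identity, GLI3 restrains ventral fates, and NR2E1 (also called TLX) sustains self-renewal. PRDM16 is a zinc finger regulator that radial glia also express.

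RNA of the brain ventricular zone was measured on 9 Affymetrix Mouse Gene ST 1.0 arrays, as log2 values. All samples came from newborn mice of the C57BL/Ka strain, and the cells were not cultured or treated. The groups were Prdm16+/+ (WT), Prdm16LacZ/+ (HET), with LacZ on 1 allele, and Prdm16LacZ/LacZ (KO) with LacZ on both, with 3 arrays each. The labels do not tie the arrays to separate pups, so the p-values measure the spread between arrays, which may be technical in part. With 3 arrays per genotype the precision is limited. The RNA is that of a dissected tissue, in which fewer cells of a type cannot be told apart from less RNA per cell.

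Array medians lay between 5.801 and 5.919 and upper quartiles between 7.26 and 7.38 on the log2 scale. Prdm16 itself lay between 7.23 and 7.62 in WT, 6.995 and 7.34 in HET, and 5.69 and 6.41 in KO. Its KO value fell below WT (log2 change -1.38, SE 0.18, adjusted p = 0.010 by limma). The call was lost when WT replicate 1 was left out (adjusted p = 0.076), when WT replicate 2 was (0.069), and when HET arrays did not enter the model (0.080). Xist, the transcript that silences an X chromosome in females, was high (10.04 to 11.002) on 4 arrays, 1 WT, 1 HET and 2 KO, and low (4.42 to 4.99) on the other 5. Each genotype thus held Xist-high and Xist-low arrays, so its arrays were not all repeats of the same RNA. Whether each array was a separate pup stays unknown. Where the Prdm16 probes lie relative to the LacZ insertion was not checked.

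Loss of both alleles was compared with WT to ask whether the progenitor factors depend on Prdm16. None of the 10 passed the test across all genes, where an adjusted p under 0.05 was a call (limma with Benjamini-Hochberg adjustment; 0.451% of all genes were called). At an unadjusted p under 0.05 there were 2, Lhx2 and Pax6, both lower in KO, against 6.15% of all genes. Over the other settings that count ran from 1 (without KO replicate 1) to 4 (array weights, where the count over all genes rose from 1227 to 2103). The smallest adjusted p among the 10 was 0.38, for Lhx2. Of the 10 changes, 7 lay below 0, against 47.3% of all genes, and 3 above, with a median of -0.06 on the log2 scale against 0.01 over all genes. This lean rested on 1 array: without KO replicate 1, 4 of 10 lay below 0 and the median was 0.01. The group thus had 3 genes with values of 0.3 or more below WT (Lhx2, Pax6 and Gli3), 1 gene 0.22 above it (Sox2) and 6 within 0.1 of it. Where a single KO or HET value of a gene is given below, it is the log2 change against WT, unless another comparison is named.

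**Figure D1:**
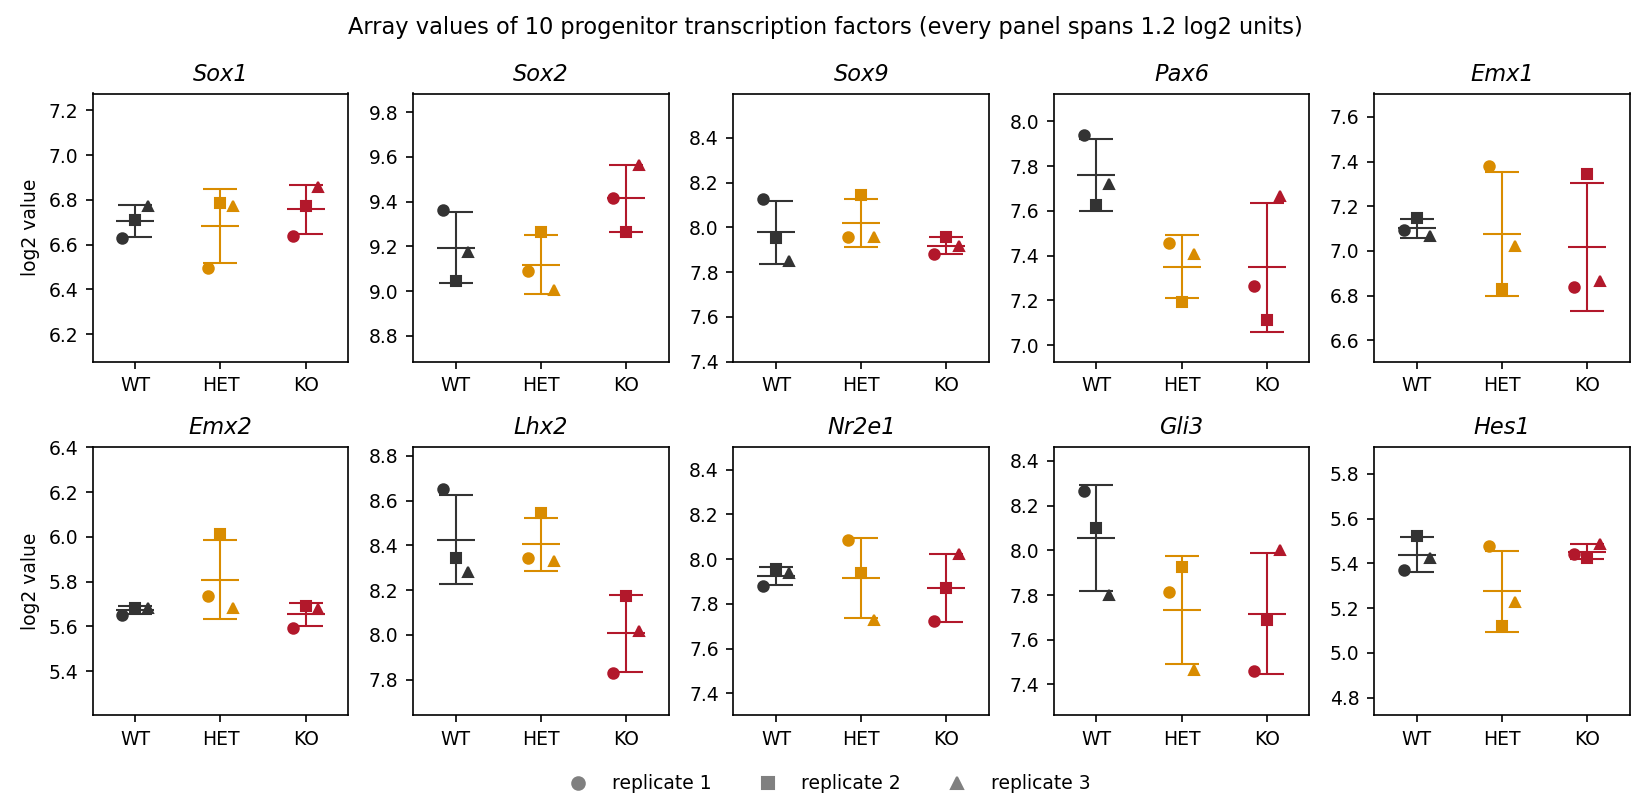
Log2 value of each of the 10 genes on the 9 arrays, by genotype; symbols are replicates, horizontal lines are means and error bars are SDs of 3 arrays. Lhx2 lay at 7.83 to 8.18 in KO, below every WT and HET array, and Pax6 at 7.19 to 7.46 in HET, below every WT array.

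Lhx2, a LIM homeodomain factor that sets cortical against hippocampal organizer fate, was the member with the smallest p. Its values were 8.65, 8.34 and 8.28 in WT, 8.34, 8.54 and 8.33 in HET, and 7.83, 8.18 and 8.02 in KO. All 3 KO arrays lay below every WT and every HET array, while WT and HET overlapped. KO lay 1.34-fold below WT (log2 change -0.42, SE 0.12, 95% interval -0.69 to -0.15), with an unadjusted p of 0.0061. Only 1.78% of all genes had a larger change in either direction, and in 4.34% all KO arrays lay below all WT arrays (9.98% separated in either direction, 5.63% with KO higher). Lhx2 was the 1 member whose KO and WT arrays did not overlap. The adjusted p of 0.38 did not pass, and over all other settings it ranged from 0.10 to 1.0.

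Pax6, a paired-box homeodomain factor that drives cortical neurogenesis, was the other member with an unadjusted p under 0.05 in KO against WT. It lay at 7.94, 7.62 and 7.72 in WT, 7.46, 7.19 and 7.40 in HET, and 7.26, 7.11 and 7.67 in KO. The WT arrays were above all HET arrays, and KO replicate 3 reached into the WT range, above WT replicate 2. KO lay at -0.41 on the log2 scale (SE 0.14, 95% interval -0.73 to -0.09, unadjusted p = 0.016, adjusted p = 0.60 by limma), a 1.33-fold difference. Without KO replicate 3 the value was -0.57, and without KO replicate 2 it was -0.29; it did not pass in either case.

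Gli3, the zinc finger factor that in its repressor form limits hedgehog signalling in the dorsal forebrain, came next. It lay at 8.26, 8.10 and 7.80 in WT, 7.81, 7.93 and 7.46 in HET, and 7.46, 7.69 and 8.001 in KO. These groups overlapped widely, with KO replicate 3 above WT replicate 3 and every HET array. The KO value was -0.34 (SE 0.17, 95% interval -0.71 to 0.03, adjusted p = 0.86), and it moved between -0.48 and -0.21 as single arrays were left out, the latter without KO replicate 1.

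RefSeq promoter windows (GRCm38.p6, 250 bases before to 50 after a transcript start) of these 3 genes are printed because they had the most negative changes of the group in KO against WT. All are on the + strand: Lhx2 at chr2:38339031-38339330, Pax6 at chr2:105668646-105668945 and Gli3 at chr13:15463473-15463772, each the first listed start of its gene. Capitals mark matches, on either strand, to TGGGAA (core of the Notch effector RBPJ), CACNAG (N box, bound by HES factors), CANNTG (E box), ACAAT (SOX core), TAATTA (homeodomain core), TGGGTGGTC (GLI site) or GGGCGG (GC box).
Lhx2: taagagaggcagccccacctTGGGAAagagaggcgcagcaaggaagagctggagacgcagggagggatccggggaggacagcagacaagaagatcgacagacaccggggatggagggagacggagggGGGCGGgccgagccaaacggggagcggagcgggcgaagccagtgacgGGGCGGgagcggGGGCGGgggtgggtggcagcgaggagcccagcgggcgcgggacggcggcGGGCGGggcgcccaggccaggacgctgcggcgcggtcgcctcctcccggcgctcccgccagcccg
Pax6: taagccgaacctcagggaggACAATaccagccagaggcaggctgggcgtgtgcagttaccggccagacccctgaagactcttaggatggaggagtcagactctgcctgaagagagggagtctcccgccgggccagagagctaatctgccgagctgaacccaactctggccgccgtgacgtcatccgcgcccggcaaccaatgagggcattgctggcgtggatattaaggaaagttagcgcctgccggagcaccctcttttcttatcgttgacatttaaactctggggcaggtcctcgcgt
Gli3: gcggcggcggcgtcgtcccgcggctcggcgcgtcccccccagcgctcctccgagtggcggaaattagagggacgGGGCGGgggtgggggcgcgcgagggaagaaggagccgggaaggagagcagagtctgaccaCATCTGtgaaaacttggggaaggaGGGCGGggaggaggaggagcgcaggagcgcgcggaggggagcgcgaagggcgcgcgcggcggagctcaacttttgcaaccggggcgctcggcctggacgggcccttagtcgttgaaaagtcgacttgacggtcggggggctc
The Lhx2 window held 1 TGGGAA and 4 GGGCGG matches, the Pax6 window 1 ACAAT, and the Gli3 window 1 CANNTG and 2 GGGCGG. Matches to different motifs did not overlap in these windows. The 3 windows thus shared no motif among those searched, though Lhx2 and Gli3 both held the GC box.

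The table held 10 windows for 8 of the members (Sox1, Sox2, Pax6, Emx1, Emx2, Lhx2, Nr2e1 and Gli3), with separate starts for Lhx2 and Pax6. These windows were rich in CpG, with a median of 28.0 CpG and 67.8% G or C, against 7 CpG and 52.7% over all 32851 windows. TGGGAA was found in 5 of 10 (25.6% of all windows), GGGCGG in 6 (35.7%), CANNTG in 6 (72.3%) and ACAAT in 1 (31.0%). CACNAG was in 1 (42.5%), TAATTA in 1, that of Emx2 (5.29%), and TGGGTGGTC in 0 (0.253%). A match is a description of the letters and not a measured binding site.

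Among the SOX members WT and KO overlapped in each, and Sox2 lay farthest from its WT mean. Sox2, the SOXB1 factor that marks neural stem cells, lay at 9.36, 9.04 and 9.18 in WT, 9.09, 9.26 and 9.004 in HET, and 9.41, 9.26 and 9.56 in KO. The KO arrays were above every HET array, though KO replicate 2 and HET replicate 2 round to the same value, and overlapped WT. KO lay 0.22 above WT on the log2 scale (SE 0.11, 95% interval -0.03 to 0.47, adjusted p = 0.87), and 0.15 above it without KO replicate 3 or without WT replicate 2. Sox2 was the 1 member whose value above WT was larger than 0.1.

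Sox1, the second SOXB1 gene of the group, lay at 6.63, 6.71 and 6.77 in WT, 6.49, 6.78 and 6.77 in HET, and 6.64, 6.77 and 6.86 in KO. Its KO value of 0.05 had a 95% interval of -0.17 to 0.27, and lay at 0.0014 without KO replicate 3 and 0.11 without KO replicate 1. Sox9, a SOXE factor of stem cells and of the switch to glia, lay at 8.13, 7.95 and 7.85 in WT, 7.96, 8.15 and 7.96 in HET, and 7.88, 7.96 and 7.92 in KO. Sox9 had a value of -0.06 (95% interval -0.26 to 0.14) and the narrowest KO range of the SOX members. The genotypes overlapped for both genes. Those intervals give the precision of the 2 estimates and are not limits of detection. In simulated data, 42% of 100 genes with an absolute log2 change of 0.5 in KO against WT were called, and 93% with a change of 1. With 3 arrays per genotype, a change of 0.5 in either gene could thus go uncalled.

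The EMX pair, homeodomain factors of the dorsal cortex, also overlapped between genotypes. Emx1 lay at 7.09, 7.15 and 7.07 in WT, 7.38, 6.83 and 7.02 in HET, and 6.84, 7.35 and 6.87 in KO. One array stood high in each mutant group, HET replicate 1 and KO replicate 2, and the KO value was -0.08 (95% interval -0.43 to 0.27). Emx2 lay at 5.65, 5.68 and 5.68 in WT, 5.73, 6.01 and 5.68 in HET, and 5.59, 5.69 and 5.68 in KO, with a KO value of -0.02 (95% interval -0.22 to 0.19). Its values were below the array median on 8 of 9 arrays, HET replicate 2 being the exception, so a change in a dim transcript could be understated.

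Nr2e1, an orphan nuclear receptor of neural stem cells, lay at 7.88, 7.96 and 7.94 in WT, 8.08, 7.94 and 7.73 in HET, and 7.72, 7.87 and 8.03 in KO. The HET and KO arrays spread on both sides of the WT arrays, and the KO value was -0.05 (95% interval -0.29 to 0.19). Hes1, the Notch-responsive repressor of neuronal genes, lay at 5.37, 5.52 and 5.42 in WT, 5.48, 5.12 and 5.23 in HET, and 5.44, 5.42 and 5.49 in KO. Its KO value was 0.01 (95% interval -0.20 to 0.23), and all 9 values were below the array medians. Neither gene separated the genotypes.

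Of the 10 genes, 4 had exactly the same deposited value on several arrays: Sox1 at 6.77 on WT replicate 3, HET replicate 3 and KO replicate 2, Sox9 at 7.96 on HET replicates 1 and 3 and KO replicate 2, Emx2 at 5.68 on WT replicates 2 and 3 and HET replicate 3, and Hes1 at 5.42 on WT replicate 3 and KO replicate 2. Such identical values occurred in 61.5% of all probe sets. Lhx2, Pax6, Gli3 and Sox2 had none, so their spreads rest on 9 different values.

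**Figure D2:**
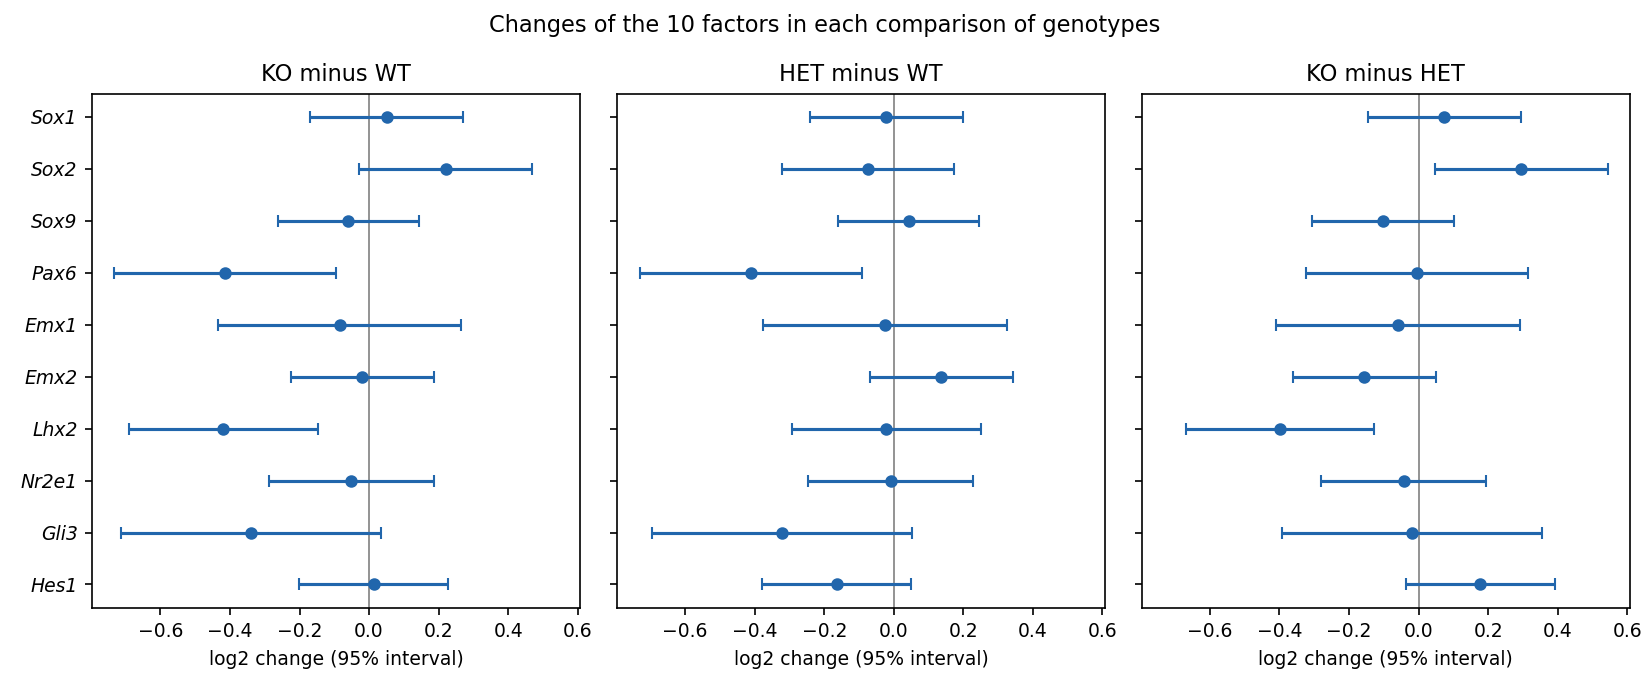
Log2 change of each of the 10 genes in the 3 comparisons of genotypes; points are limma estimates from 1 fit of all 9 arrays and bars are 95% intervals, unadjusted for the number of genes. The intervals of Lhx2 and Pax6 lay below 0 in KO minus WT, that of Pax6 below 0 in HET minus WT, and those of Lhx2 below and Sox2 above 0 in KO minus HET.

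Loss of 1 allele was compared with WT. None of the 10 passed (0% of all genes were called by limma; 808 genes, 4.05%, had an unadjusted p under 0.05, and no other setting called a gene). By limma, Pax6 was the 1 member at an unadjusted p under 0.05 (unadjusted 0.017, adjusted p = 0.99). That count was 0 without HET replicate 2 or without WT replicate 1 and 3 with array weights, and without HET replicate 1 the count over all genes was 2280. Pax6 lay at -0.41 (SE 0.14, 95% interval -0.73 to -0.09), 0.903% of all genes had a larger change, and in 3.1% all HET arrays lay below all WT arrays (3.75% above, 6.85% either way). Pax6 was the 1 member whose HET and WT arrays did not overlap. Gli3 lay at -0.32 (SE 0.17), Hes1 at -0.16 (SE 0.10) and Emx2 at 0.14 (SE 0.09). Single arrays moved these values: Gli3 lay at -0.19 without HET replicate 3, Hes1 at -0.09 without HET replicate 2 and at -0.27 without HET replicate 1, and Emx2 at 0.04 without HET replicate 2. The other 6 lay within 0.1 of WT, Lhx2 among them at -0.02 (SE 0.12). The median was -0.02 and 8 of 10 lay below 0, against 48.5% of all genes. That count was 5 without HET replicate 3, and 6 without HET replicate 1 or without WT replicate 1.

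Loss of the remaining allele was read from KO against HET, and again none of the 10 passed (0.206% of all genes were called). At an unadjusted p under 0.05 there were 2, against 6.16% of all genes: Lhx2 at -0.40 (SE 0.12, 95% interval -0.67 to -0.13, adjusted p = 0.51) and Sox2 at 0.30 (SE 0.11, 95% interval 0.05 to 0.54, adjusted p = 0.72). That count was 1 without KO replicate 1 or without KO replicate 3. It was 3 without HET replicate 1 and KO replicate 2 together, a setting that was not planned. In 3.09% of all genes the KO arrays all lay below the HET arrays, as in Lhx2, and in 3.45% all above, as in Sox2 (6.54% either way). Of the 10 values, 7 lay below 0, against 49% of all genes. Without HET replicate 1 that count was 4 (median 0.03), and without KO replicate 1 it was 3 (median 0.04). Pax6 lay at -0.003 (95% interval -0.32 to 0.32) and Gli3 at -0.02 (95% interval -0.39 to 0.36). These comparisons share arrays, so their values for a gene are not independent.

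Side by side, Pax6 lay at -0.41 in both HET and KO against WT, Gli3 at -0.32 and -0.34, and Lhx2 at -0.02 and -0.42. In a contrast of HET with the midpoint of WT and KO, chosen after seeing the data, Pax6 lay 0.20 below the midpoint (HET minus midpoint -0.20, 95% interval -0.48 to 0.07) and Lhx2 0.19 above it (95% interval -0.05 to 0.42). Neither passed (adjusted p = 0.93 for each by limma), and 0 genes did, with 952 at an unadjusted p under 0.05. Whether the order of the genotypes differed between Pax6 and Lhx2 was not tested. On a linear trend over 0, 1 and 2 wild-type alleles none of the 10 passed (smallest adjusted p = 0.49, 0.241% of all genes called), and 2 had an unadjusted p under 0.05, against 6.21% of all genes. That count was 1 without KO replicate 1 or without KO replicate 2. It was 3 with array weights, quantile normalization or the Xist level as a covariate, and without HET replicate 3 or without KO replicate 3.

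The arrays did not move all members together. KO replicate 1 held the lowest value of 4 members (Emx2, Lhx2, Nr2e1 and Gli3) and had 2 of 10 above their mean. KO replicate 3 had 6 above their mean and the highest value of Sox1 and Sox2. WT replicate 1 held the highest value of Pax6, Lhx2 and Gli3. Without WT replicate 1, KO lay at -0.31 for Lhx2, -0.32 for Pax6 and -0.24 for Gli3 on the log2 scale, so each of the 3 differences was smaller without that array. The spread was larger in HET than in WT for 6 of 10 members and larger in KO than in WT for 6 of 10, with a median SD of 0.11 in WT, 0.17 in HET and 0.15 in KO. The mutant groups were wider over all genes too, where the WT median SD of 0.077 compared with 0.117 for HET and 0.130 for KO.

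**Figure D3:**
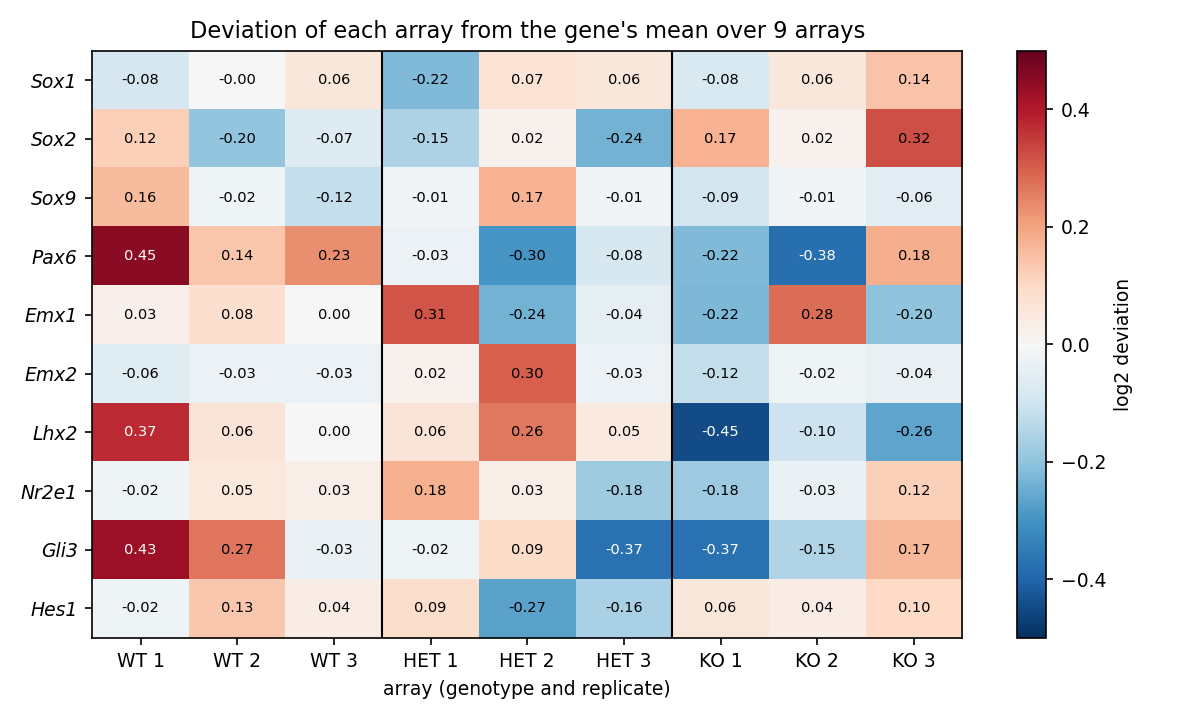
Deviation of each array (columns, genotype and replicate) from the mean of each gene (rows) over 9 arrays, in log2 units; red is above and blue below the mean. WT replicate 1 was highest for Pax6, Lhx2 and Gli3, and KO replicate 1 lowest for Emx2, Lhx2, Nr2e1 and Gli3.

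The Xist-high arrays were WT replicate 1, HET replicate 1 and KO replicates 2 and 3. Within them KO minus WT was -0.56 for Lhx2, -0.55 for Pax6 and -0.42 for Gli3, and within the Xist-low arrays it was -0.48, -0.41 and -0.49. The 3 genes were lower in KO in both sets, but most of this was fixed by which arrays fell in each set. WT replicate 1, the only WT array of the Xist-high set, held the highest value of all 3. KO replicate 1, the only KO array of the Xist-low set, held the lowest value of Lhx2 and of Gli3. Sox2 lay at 0.05 and 0.30. In 5 of the 10 members the sign differed between the sets: Nr2e1 lay at 0.07 and -0.22, Sox1 at 0.18 and -0.10, Emx1 at 0.01 and -0.27, Emx2 at 0.03 and -0.09, and Hes1 at 0.09 and -0.03. At least 1 group in each set was a single array, so these are values with no test.

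Related members were set against each other within each array for 3 pairs, since a ratio shows unequal change of its genes. The log2 ratio of Sox2 over Sox1 was 0.17 higher in KO than in WT (exact permutation p = 0.30, two-sided, adjusted over 3 pairs p = 0.45). That of Emx2 over Emx1 was 0.07 higher (exact p = 0.70, adjusted p = 0.70). That of Emx2 over Pax6, factors with opposed gradients across the cortex, was 0.39 higher (exact p = 0.20, adjusted p = 0.45). The ratio of Sox2 over Sox1 lay between 0.09 (without WT replicate 2) and 0.29 (without WT replicate 1), and that of Emx2 over Pax6 at 0.26 without KO replicate 2. No pair passed, and 3 arrays against 3 cannot give a p below 0.10.

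The genes around these factors were described by lists. These were chosen with earlier results of these data known, so their counts are descriptions and not tests. Of 43 other regulators of neural progenitors, 41 were measured, and 0 rose and 0 fell in KO against WT. The median was 0.011, against 0.0064 over all genes, and 8 had an unadjusted p under 0.05, 6 lower and 2 higher, against 6.15% of all genes. The largest values were those of the COUP-TF nuclear receptors, which pattern caudal cortex and caudal ganglionic eminence. Nr2f2 lay at 6.20, 6.38 and 6.76 in WT, 7.26, 6.55 and 6.57 in HET, and 7.91, 7.28 and 7.73 in KO. All its KO arrays were above every WT and HET array, with a value of 1.19 (SE 0.22, adjusted p = 0.057). In 5.63% of all genes all KO arrays lay above all WT arrays, and in 3.45% above all HET arrays. Nr2f2 did pass under array weights (adjusted p = 0.0075), after leaving out the genes of lowest mean (0.041) and after quantile normalization (0.044). It also passed when HET replicate 1 was left out (0.031). Leaving out that array with KO replicate 2, a setting that was not planned, gave 0.026. Over all settings the adjusted p of Nr2f2 reached 0.31.

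Nr2f1 lay at 6.16, 5.99 and 6.39 in WT, 6.73, 6.58 and 6.48 in HET, and 7.56, 6.64 and 6.93 in KO. WT was below every other array, while HET and KO overlapped. All KO arrays lay above all WT arrays in 5.63% of all genes, and all HET arrays did in 3.75%. The KO value of Nr2f1 was 0.86 (SE 0.20, adjusted p = 0.17, and 0.017 with array weights). Sall3, a zinc finger factor, lay at -0.33 (SE 0.09, adjusted p = 0.28) and Pou3f4, a POU factor, at -0.49 (SE 0.14, adjusted p = 0.38, and 0.020 without KO replicate 3). Among the SOX genes of the list, named after their values were seen, Sox3 lay at -0.05, Sox21 at 0.01, Sox8 at 0.01, Sox11 at 0.03, Sox4 at 0.23 and Sox5 at -0.40, and none passed.

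Around Gli3, 11 of 12 hedgehog pathway genes were measured, and 0 rose and 0 fell (median -0.04). Cdon, a co-receptor of hedgehog ligands, lay at 6.26, 6.07 and 5.72 in WT, 5.82, 5.72 and 5.72 in HET, and 5.64, 5.33 and 5.39 in KO. Its KO arrays were below all others, at -0.57 (SE 0.13, adjusted p = 0.17), and below the array medians. All KO arrays lay below all WT arrays in 4.34% of all genes, and below all HET arrays in 3.09%. WT replicate 3 and HET replicates 2 and 3 had the same deposited Cdon value. The pathway's outputs Ptch1 (-0.001, SE 0.12) and Gli1 (0.16, SE 0.15), named after their values were seen, did not pass. Around Hes1, all 16 Notch pathway genes were measured, 0 rose and 0 fell, 4 lay below 0 and the median was 0.04. Dll1, a Notch ligand, lay at 0.20 (SE 0.08, adjusted p = 0.74), with its KO arrays above all others. All KO arrays lay above all WT arrays in 5.63% of all genes, and above all HET arrays in 3.45%. WT replicates 2 and 3 and HET replicates 1 and 3 had the same deposited Dll1 value.

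Of 20 genes known as targets of the members, 17 were measured, and 0 rose and 0 fell (median -0.001). Prom1, a membrane protein of progenitors, lay at -0.57 (SE 0.16, adjusted p = 0.37), Nfia, a gliogenic factor induced with Sox9, at -0.36 (SE 0.12, adjusted p = 0.52), Ccnd1, a G1 cyclin, at -0.28 (SE 0.10, adjusted p = 0.61) and Eomes, a Pax6 target of intermediate progenitors, at -0.32 (SE 0.11, adjusted p = 0.61). Neurog2, a proneural gene downstream of Pax6, lay at 0.03 (SE 0.12) and Nes, an intermediate filament gene with a SOX-bound enhancer, at 0.11 (SE 0.15); both were named after their values were seen. In all, 6 of the 17 had an unadjusted p under 0.05, 5 lower and 1 higher, against 6.15% of all genes. Among them Nfia also stands in the list of other regulators and Dll1 in the Notch list. This list too was chosen with earlier results known. Without KO replicate 1 the value of Prom1 was -0.37. Eomes in KO (4.42 to 4.51) lay below the lower quartile of its arrays (4.57 to 4.68), so its values could be partly background.

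**Figure D4:**
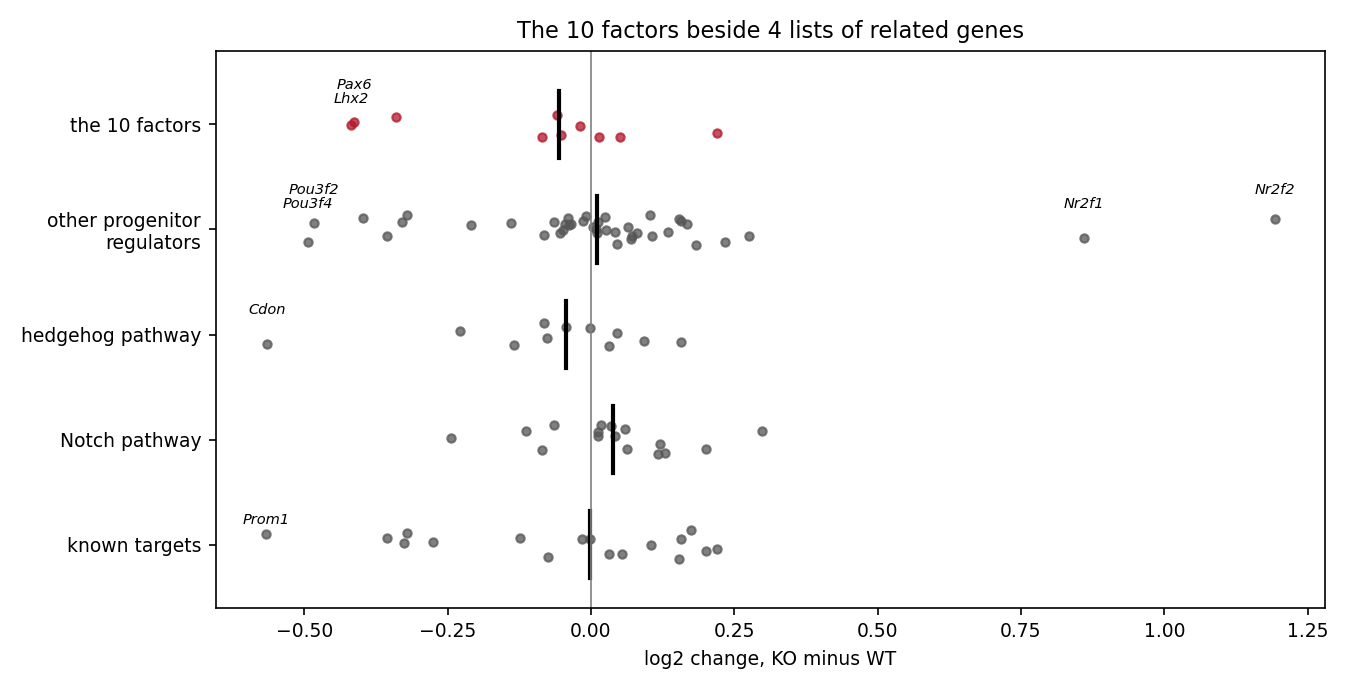
Log2 change of KO minus WT for the 10 genes (top row) and for 4 lists of related genes; each point is a gene, black bars are medians and vertical scatter has no meaning. Medians lay between -0.06 and 0.04, and Nr2f2 (1.19) and Nr2f1 (0.86) lay farthest from 0.

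Cell type markers were read on the same arrays. The labelled tissue carried its markers: the mean log2 value of 10 radial glia genes, 2 of which (Pax6 and Sox2) are members, was 9.05 to 9.25 in WT, 8.89 to 9.17 in HET and 8.95 to 9.15 in KO. Of these, 6 lay lower in KO and 0 rose or fell. An unadjusted p under 0.05 by limma was seen in 3, all lower, against 6.15% of all genes. Markers of ventral forebrain progenitors and interneurons were also present, at 8.16 to 8.30 in WT, 8.09 to 8.31 in HET and 8.36 to 8.53 in KO, with 8 of 11 higher in KO and 0 called. Their KO arrays were above every other array, and 3 of the 11 had an unadjusted p under 0.05 by limma, all higher. Markers of postmitotic neurons were present too, at 8.73 to 8.79 in WT, 8.67 to 9.001 in HET and 8.68 to 8.88 in KO. The RNA was thus not that of radial glia alone.

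Among astrocyte markers 3 of 9 fell in KO (Apoe, Clu and Aqp4), where 0.451% of all genes were called. In all 7 lay lower, each at an unadjusted p under 0.05 by limma, against 6.15% of all genes. Aldh1l1 (0.21) and S100b (0.06) lay higher and were not called. Astrocyte means were 7.56 to 7.75 in WT, 7.44 to 7.83 in HET and 7.04 to 7.10 in KO, so WT and HET overlapped. Ependymal markers lay lower in 8 of 8, with 0 called and 6 at an unadjusted p under 0.05. Ependymal means were 5.804 to 5.893 in WT, 5.61 to 5.88 in HET and 5.22 to 5.43 in KO. In both lists the KO arrays were below every WT and HET array, as were those of Lhx2. Whether Lhx2 and Pax6 differed in this order was not tested. Cortical intermediate progenitor markers, at 5.89 to 5.97, 5.85 to 5.98 and 5.76 to 5.88, lay lower in 4 of 6. An unadjusted p under 0.05 was seen in 2 of the 6, each lower, with 0 called. The part of these cell types in the values of Lhx2, Pax6 and Nr2f2 was not tested. The KO medians of the other 7 lists (neurons, oligodendrocyte lineage, choroid plexus, microglia, vessels, red blood cells and meninges) lay between -0.09 and 0.07, and of their genes 1 fell, the meningeal proteoglycan gene Ogn. Meningeal means were 5.55 to 5.66 in WT, 5.34 to 5.67 in HET and 5.20 to 5.49 in KO. Ogn lay at -1.37, while the other meningeal genes lay between -0.18 (Lum) and 0.13 (Slc6a13) and were not called.

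**Figure D5:**
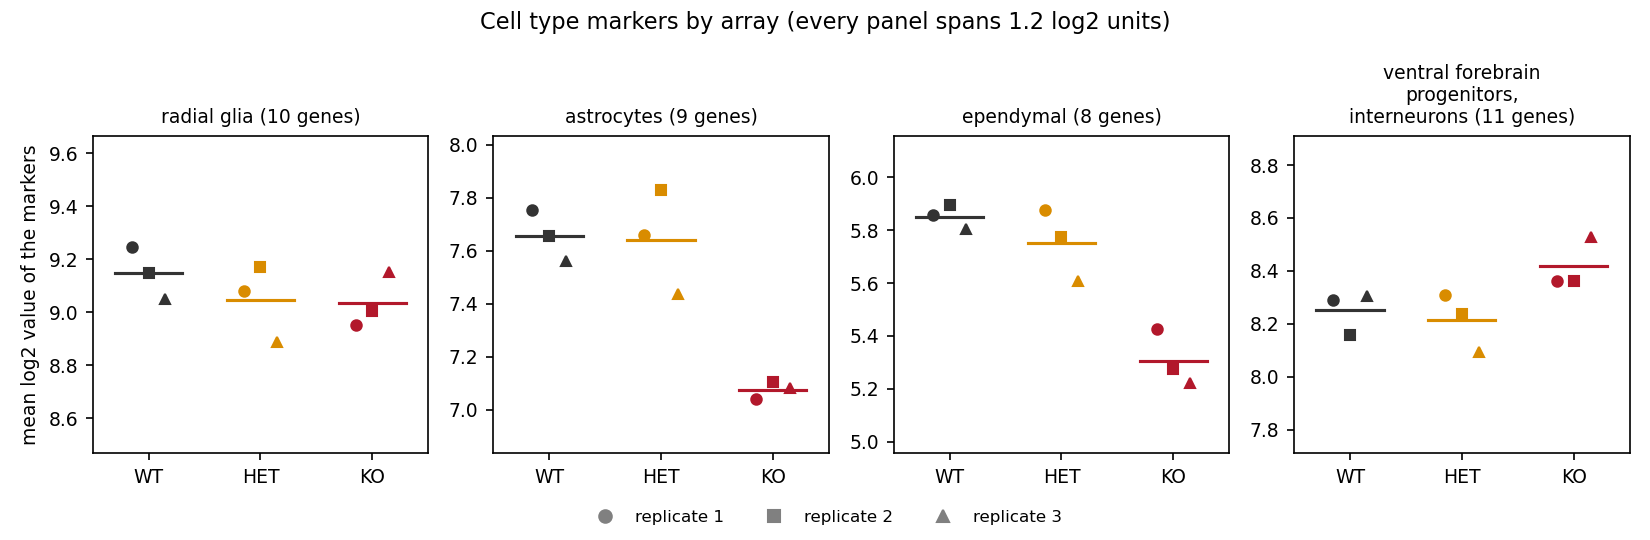
Mean log2 value of the markers of 4 cell types on each array, by genotype; symbols are replicates and lines are group means. Astrocyte (7.04 to 7.10) and ependymal (5.22 to 5.43) means in KO lay below all other arrays, while radial glia means overlapped.

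The genes whose pattern over the 9 arrays was most like that of the 2 members with the smallest p were found by the root mean square difference of mean-centred log2 values. Nearest to Lhx2, which varied by 0.24 around its own mean, were Slc16a6, a transporter (difference 0.08), Baalc (0.09) and Kcnk2, a potassium channel (0.10). Their KO values were -0.32, -0.47 and -0.32 and their HET values -0.07, -0.09 and -0.01. Nearest to Pax6, which varied by 0.26, were C8b, a complement component (0.10), Phactr2 (0.11) and Insig1, a regulator of sterol synthesis (0.14). Their KO values were -0.28, -0.55 and -0.20 and their HET values -0.31, -0.51 and -0.21. None of the 6 passed in KO against WT (smallest adjusted p = 0.11 by limma, for Baalc). They were picked for likeness on these same arrays, so their KO and HET values had to resemble those of Lhx2 or Pax6.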

How the data were processed

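The authors deposited log2 values of 28940 probe sets on 9 arrays, 3 per genotype; per the submitters' processing notes RMA, affy and limma were used, with no version or order. RMA values are background-corrected, normalized and summarised over the probes of a set, which compresses changes of dim genes. No genome build was found in these sources.

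Probe sets with 1 gene symbol in the supplied annotation (21789; 1621 had several, 5530 none) were kept, the highest-mean probe set per gene, giving 19938 genes. Tests used limma 3.58.1 in R 4.3.3 (lmFit, eBayes, two-sided) with 1 mean per genotype, Benjamini-Hochberg adjustment over all genes and no filter, and were tested on simulated data. Within-array ratios were tested by exact permutation (scipy 1.17.1).

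The named genes were the 10 members, Prdm16, up to 4 genes per context list with an unadjusted p under 0.05 in KO against WT, by smallest p, and the 3 genes most like each of the 2 members with the smallest p; others are marked where named. The members and lists were chosen with earlier results of these data known. Same-numbered arrays did not deviate together (correlations -0.34 to 0.06), so replicate numbers were not treated as pairs. Promoter sequences are from RefSeq.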

Additional observations from a re-analysis of the deposited data

How the results depend on the processing

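In none of the 21 other settings did any of the 10 genes pass in any comparison; the smallest adjusted p was 0.10, for Lhx2 in KO against WT with array weights. With the replicate block, which cannot move a difference of means in this balanced design, 0 of the 10 were called (Lhx2 at -0.42, adjusted p = 0.54). Of 630 values, 300 were fixed by how the setting is built; of the 330 that could move, 287 kept their sign and 43 changed it, all at most 0.17 from 0, and the cause was not tested. In KO against WT these were Emx2 with quantile normalization (0.00023) and Hes1 with the Xist level as a covariate (-0.015). In HET against WT they were Nr2e1 with median centring (0.0047), Sox1 with array weights (0.015) and Sox9 with quantile normalization (-0.0099), and in KO against HET Sox1 with array weights (-0.00027). The setting without HET replicate 1 and KO replicate 2 together was not planned. There HET against WT gave 0.010 for Lhx2 and 0.073 for Sox1, and KO against HET 0.036 for Gli3, 0.042 for Nr2e1, 0.17 for Pax6 and -0.030 for Sox1. Leaving out single arrays gave, in KO against WT, -0.25 to 0.0036 for Emx1, -0.037 to 0.011 for Emx2, -0.022 to 0.056 for Hes1, -0.13 to 0.024 for Nr2e1 and -0.12 to 0.016 for Sox9. In HET against WT it gave -0.18 to 0.098 for Emx1, -0.093 to 0.092 for Lhx2, -0.093 to 0.085 for Nr2e1, -0.072 to 0.073 for Sox1, -0.15 to 0.0091 for Sox2 and -0.021 to 0.12 for Sox9. In KO against HET it gave -0.22 to 0.092 for Emx1, -0.16 to 0.11 for Gli3, -0.14 to 0.042 for Nr2e1, -0.16 to 0.12 for Pax6 and -0.022 to 0.13 for Sox1, and the ratio of Emx2 over Emx1 moved from -0.022 to 0.21. Over all genes the count of calls in KO against WT ranged from 23 to 151. Detection calls were not used here, so values below the array median (such as Hes1, Emx2, Cdon and Eomes in KO) could be partly background.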
